A study of Mus musculus with 6 samples.

Results

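The 41 epithelial junction and keratin genes encode the proteins that hold epithelial cells together, polarise them and brace them from within, with the regulators and surface proteins that accompany them. They were taken by name from textbook epithelial lists as a measure of how much of each foregut was epithelium, and all 41 had a row among the 22564 features of the table. Of these, 33 averaged 1 TPM or more and were tested, and the other 8 (Tjp3, Krt5, Krt15, Grhl1, Grhl3, Ovol1, Elf3 and Ehf) were described only by their level. TPM values are shares of a library corrected for transcript length, so levels of different genes can be set beside each other but read depth cannot be recovered. RNA came from micro-dissected E9.5 mouse foreguts on a mixed strain background, 1 embryo per library. The 3 mutants were homozygous for loss of both Gli2 and Gli3 (Gli2-/-;Gli3-/-), which carry the Hedgehog signal into the nucleus, and had 19, 22 and 21 somites in mutants 1, 2 and 3. The 3 controls were heterozygous for both genes (Gli2+/-;Gli3+/-) and had 19, 24 and 21 somites in controls 1, 2 and 3, so every library carried at least 1 mutant copy of each gene. All mutants and controls had fewer somites than the range that the paper gives for E9.5 in its single-cell series. Each library mixed endoderm, mesoderm and other tissue of the dissected piece.

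In the early foregut the endoderm forms a single-layered epithelial tube inside a sleeve of mesenchyme. Epithelial cells are joined by adherens junctions built on E-cadherin, sealed by tight junctions built on claudins, occludin and the ZO scaffold proteins, and riveted by desmosomes whose plaques anchor keratin filaments. Keratins 8 and 18 pair in simple epithelia and keratins 5 and 15 belong to stratified ones. The epithelial state is kept by Grainyhead-like and Ovo-like transcription factors and by the Esrp splicing regulators, and is opposed by the Snail and Zeb repressors, which bind the E-box CACCTG in epithelial promoters. Some of these proteins also occur outside gut endoderm, in surface ectoderm, mesothelium, the early neural tube and, for desmosomal proteins and keratins 8 and 18, the embryonic heart.

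The promoters are shown for the cell adhesion gene Epcam and the claudin gene Cldn6, the most abundant of their groups, and for the keratin pair Krt8 and Krt18, which moved together in the results. Each is the RefSeq window on GRCm38.p6 with 250 bases before to 50 after the annotated start, printed 5′ to 3′, and capitals mark the E-box CACCTG or its complement CAGGTG.
Epcam, chr17:87635729-87636028, forward strand: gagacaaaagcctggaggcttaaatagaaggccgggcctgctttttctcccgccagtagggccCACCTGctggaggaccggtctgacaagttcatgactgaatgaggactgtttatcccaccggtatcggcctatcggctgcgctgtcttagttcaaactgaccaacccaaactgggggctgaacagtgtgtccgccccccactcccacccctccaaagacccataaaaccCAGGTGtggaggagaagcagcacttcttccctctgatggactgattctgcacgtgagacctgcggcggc
Cldn6, chr17:23679115-23679414, forward strand: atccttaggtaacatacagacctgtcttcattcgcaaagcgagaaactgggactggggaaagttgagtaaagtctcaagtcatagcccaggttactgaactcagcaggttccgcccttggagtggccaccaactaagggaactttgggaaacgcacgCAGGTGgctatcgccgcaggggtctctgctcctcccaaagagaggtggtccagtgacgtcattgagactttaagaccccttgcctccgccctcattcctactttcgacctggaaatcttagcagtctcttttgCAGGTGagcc
Krt8, chr15:102004293-102004592, reverse strand: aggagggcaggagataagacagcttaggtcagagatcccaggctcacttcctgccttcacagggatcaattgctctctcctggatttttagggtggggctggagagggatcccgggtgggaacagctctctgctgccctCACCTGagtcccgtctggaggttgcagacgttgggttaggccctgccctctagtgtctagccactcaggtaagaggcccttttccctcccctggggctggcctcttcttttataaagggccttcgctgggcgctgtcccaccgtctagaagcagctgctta
Krt18, chr15:102027966-102028265, forward strand: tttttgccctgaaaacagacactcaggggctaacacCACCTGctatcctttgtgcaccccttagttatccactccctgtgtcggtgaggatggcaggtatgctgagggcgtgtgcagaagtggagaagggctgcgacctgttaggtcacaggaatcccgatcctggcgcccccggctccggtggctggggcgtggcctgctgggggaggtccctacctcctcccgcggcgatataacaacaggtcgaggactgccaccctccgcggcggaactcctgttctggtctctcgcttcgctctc
In the Epcam window the E-box began 187 and 19 bases before the start, and in the Krt8 and Krt18 windows 111 and 214 bases before it. The Cldn6 window held one 93 bases before the start and one 40 bases after it. RefSeq windows were matched for 28 of the 41 genes, and 21 of the 28 (75%) held CACCTG on either strand in at least 1 window. The same letters occurred in 20.5% of 9813 matched genes among all those tested and in 20.2% of all 32851 windows. With only the first window of each gene, the shares were 71.4% of the 28 and 17.1% of all matched genes. The median GC content was 60.7% in windows of the members and 60.7% in those of all genes tested. Genes without the letters were Cgn, Cldn12, Grhl1, Jup, Ovol2, Spint1 and Tjp1. The Grainyhead motif AACCNGTT, also read on both strands and sharing bases with an E-box in 0 windows of the members, occurred in Cgn, Prom1 and Rab25 (10.7% of the 28, against 2.22% of matched genes tested). These counts describe letters in windows and not sites in use.

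The comparison of genotypes asked whether the epithelial part of the foregut differed without Gli2 and Gli3. None of the 33 genes tested was called between mutants and controls. Epcam, Cldn6, Tjp1, Prom1 and Krt18, the 5 with a mean of at least 50 TPM, had log2 fold changes between -0.08 and 0.22 (limma adjusted p = 0.999 for each). The widest differences were 0.73 for the keratin gene Krt7, higher in the mutants, and -0.31 for the desmosomal cadherin gene Dsc2, lower in the mutants, and neither passed. In a bulk library fewer epithelial cells and less RNA of a gene per cell cannot be told apart.

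A gene was called where limma gave it an adjusted p no greater than 0.1 over all 14606 genes tested, together with a log2 fold change beyond 1 in either direction. Values were taken as log2(TPM + 1), on which changes of low genes come out too small. Of all genes 0.0411% were called, and 0 of the 33. With the replicate number of the labels as a block, 0.205% of all genes were called, and again 0 of the 33. At an unadjusted p of at most 0.05, 0 of the 33 were lower, where 1.01% of all genes were, and 0 were higher, where 3.07% were. The ranges of the mutants and of the controls overlapped for all 33, while 1.68% of all genes were lower and 6.68% higher without overlap. The median log2 fold change of the 33 was 0.04, with 17 above 0 (51.5%), against a median of 0.11 and 69.8% above 0 over all genes tested. Median-of-ratios scaling took the median of all genes to -0.01 and that of the 33 to -0.06, so its sign rests on the scaling. The 95% interval of 17 of the 33 lay within -1 and 1 (59.3% of all genes), and that of 25 lay wholly above -1. For the other 8, a fall in the mutants of 1 on the log2 scale lay within the interval.

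**Figure D1:**
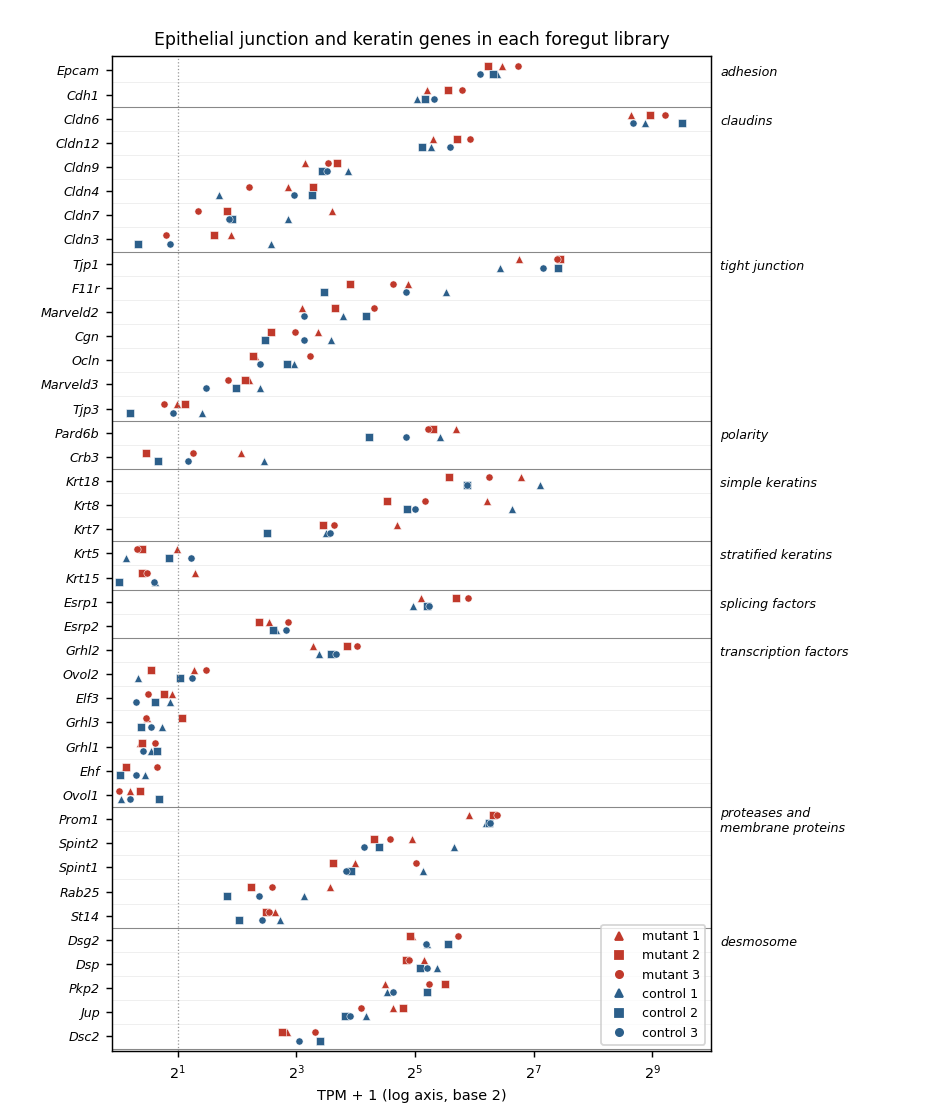
TPM + 1 on a log axis (base 2) for each of the 41 genes, grouped by role, with 1 point per library (red, mutants; blue, controls; triangle, square and circle for numbers 1, 2 and 3) and a dotted line at 1 TPM. Cldn6 was the highest gene in every library, stratified keratin genes lay near the line, and red and blue points overlap in every row that was tested.

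**Figure D2:**
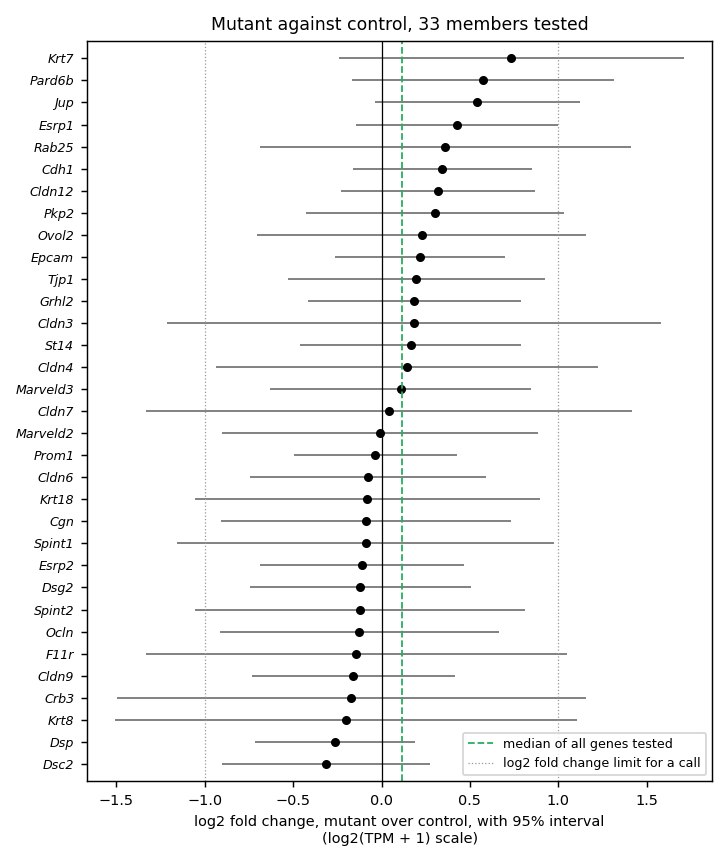
Log2 fold change of mutants over controls (points) with its 95% interval (bars) for the 33 genes tested, in order of size, with the median of all genes tested (0.11, dashed green) and the limits of -1 and 1 (dotted). Every interval crosses 0, and the points run from -0.31 for Dsc2 to 0.73 for Krt7.

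Of the adhesion genes, Epcam encodes a homophilic adhesion protein of early epithelia (chromosome 17, 87635979 to 87651129, mm10). It stood at 87.7, 74.4 and 105 TPM in mutants 1, 2 and 3, against 83.0, 78.5 and 67.2 TPM in controls 1, 2 and 3. Mutant 3 was the highest and control 3 the lowest, and the other 4 libraries were interleaved. Its log2 fold change was 0.22 (95% interval -0.27 to 0.70, limma adjusted p = 0.999). Cdh1 (chromosome 8, 106603351 to 106670246) encodes E-cadherin, the calcium-dependent adhesion protein of the adherens junction. Its level was 35.8, 46.1 and 54.5 TPM in mutants 1, 2 and 3, against 31.7, 35.1 and 38.9 TPM in controls 1, 2 and 3. Each mutant exceeded the control of the same number, but mutant 1 lay inside the control range. The log2 fold change of Cdh1 was 0.34 (95% interval -0.16 to 0.85). The sum of both genes was 135 ± 22 TPM in mutants and 111 ± 4.7 TPM in controls (mean ± SD, n = 3 each).

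Cldn6, a claudin of embryonic epithelia (chromosome 17, 23679249 to 23682446), was the most abundant of the 41 and made up 30.7% to 37.5% of their summed TPM in the mutants and 32.4% to 47.7% in the controls. Its level was 398, 500.2 and 598 TPM in mutants 1, 2 and 3, against 471, 725 and 411 TPM in controls 1, 2 and 3. Control 2 was the highest library and mutant 1 the lowest, and the log2 fold change was -0.08 (95% interval -0.75 to 0.59). Cldn9 ends 138 bases from Cldn6 on the opposite strand and was at 7.86 to 11.9 TPM in mutants and 9.82 to 13.7 TPM in controls. Cldn12 was at 38.4 to 59.7 TPM in mutants and 33.6 to 47.2 TPM in controls. Cldn4 was at 3.58 to 8.67 TPM in mutants and 2.22 to 8.55 TPM in controls. Cldn7 (1.52 to 11.2 TPM in mutants, 2.62 to 6.25 TPM in controls) and Cldn3 (0.75 to 2.72 TPM in mutants, 0.25 to 4.98 TPM in controls) were low in most libraries. The 6 claudin genes thus spanned a wide range of levels, with 4 log2 fold changes above 0 and 2 below.

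The tight junction scaffold gene Tjp1, which encodes ZO-1 (chromosome 7, 65296165 to 65527781), was at 107, 173 and 168 TPM in mutants 1, 2 and 3, against 85.8, 169 and 142 TPM in controls 1, 2 and 3. Both libraries numbered 1 were the lowest of the 6, and the log2 fold change between genotypes was 0.20 (95% interval -0.53 to 0.92). Occludin (Ocln), the tricellular junction gene Marveld2 and its relative Marveld3 had log2 fold changes of -0.13, -0.01 and 0.11. F11r, which encodes the junctional adhesion molecule JAM-A, and the cingulin gene Cgn, a cytoplasmic linker to the cytoskeleton, had -0.14 and -0.09. Tjp3, which encodes ZO-3, stood at 0.71 to 1.18 TPM in mutants and 0.14 to 1.66 TPM in controls and was not tested. None of those tested passed. Pard6b, a subunit of the apical PAR complex, was at 50.5, 38.7 and 36.3 TPM in mutants 1, 2 and 3, against 42.1, 17.7 and 27.8 TPM in controls 1, 2 and 3. It was higher in the mutant of each number, while control 1 exceeded mutants 2 and 3, and the log2 fold change was 0.57 (95% interval -0.17 to 1.31). Crb3, which encodes an apical Crumbs protein, had a log2 fold change of -0.17 at 0.38 to 3.19 TPM in mutants and 0.59 to 4.48 TPM in controls.

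Among the simple-epithelium keratins, Krt18 (chromosome 15, 102028180 to 102032027) was at 109.5, 46.7 and 74.7 TPM in mutants 1, 2 and 3, against 136, 57.7 and 57.6 TPM in controls 1, 2 and 3. Its partner Krt8, which lies 23.7 kb away, was at 72.9, 22.1 and 35.1 TPM in mutants 1, 2 and 3, against 98.5, 28.2 and 31.1 TPM in controls 1, 2 and 3. In both genes the libraries numbered 1 were the highest of the 6. The log2 fold changes between genotypes were -0.08 for Krt18 (95% interval -1.06 to 0.89) and -0.20 for Krt8 (95% interval -1.51 to 1.11), so the wide spread within each genotype set the precision. Krt7, another simple-epithelium keratin of ducts and mesothelium, was at 24.9, 9.87 and 11.4 TPM in mutants 1, 2 and 3, against 10.3, 4.65 and 10.9 TPM in controls 1, 2 and 3. Mutant 2 fell inside the control range, and the log2 fold change was 0.73 (95% interval -0.24 to 1.71). The stratified keratins were near the limit of the table, Krt5 at 0.24 to 0.97 TPM in mutants and 0.09 to 1.33 TPM in controls, and Krt15 at 0.32 to 1.44 TPM in mutants and 0 to 0.54 TPM in controls.

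Esrp1, which directs epithelial splice forms (chromosome 4, 11331933 to 11386783), was at 33.4, 50.8 and 58.3 TPM in mutants 1, 2 and 3, against 30.4, 35.7 and 36.8 TPM in controls 1, 2 and 3. Mutants 2 and 3 lay above all controls and mutant 1 did not, and the log2 fold change was 0.43 (95% interval -0.15 to 1.00). Its relative Esrp2 was at 4.15 to 6.25 TPM in mutants and 5.10 to 6.08 TPM in controls. Grhl2, the Grainyhead-like activator of Cdh1 and claudin genes, was the most abundant transcription factor of the list, at 8.75 to 15.3 TPM in mutants and 9.38 to 11.7 TPM in controls. Ovol2, a repressor of mesenchymal genes, was at 0.46 to 1.78 TPM in mutants and 0.26 to 1.36 TPM in controls. The other 5 transcription factor genes, Grhl1, Grhl3, Ovol1, Elf3 and Ehf, stayed between 0 and 1.10 TPM in every library.

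Prom1, which encodes the apical membrane protein prominin-1 (chromosome 5, 43993620 to 44102032), varied least of the abundant genes between controls. Its level was 59.2, 78.3 and 82.5 TPM in mutants 1, 2 and 3, against 72.0, 75.0 and 76.1 TPM in controls 1, 2 and 3. The log2 fold change was -0.03 (95% interval -0.50 to 0.43), and the mutants lay on both sides of the controls. The membrane protease matriptase (St14) had a log2 fold change of 0.16, and its inhibitors Spint1 and Spint2 had -0.09 and -0.12. Spint1 ranged from 11.3 to 31.2 TPM in mutants and from 13.3 to 34.2 TPM in controls, and Spint2 from 18.9 to 30.0 TPM in mutants and from 16.7 to 49.8 TPM in controls. Rab25, a small GTPase of epithelial recycling endosomes, was at 3.69 to 10.9 TPM in mutants and 2.54 to 7.71 TPM in controls, with a log2 fold change of 0.36.

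Of the desmosome genes, Jup, which encodes plakoglobin of the plaque, was at 23.7, 26.8 and 16.0 TPM in mutants 1, 2 and 3, against 17.0, 13.1 and 14.0 TPM in controls 1, 2 and 3. Mutant 3 fell below control 1, and the log2 fold change was 0.54 (95% interval -0.04 to 1.12). Dsp, which encodes desmoplakin, the link from plaque to keratin, was lower in the mutant of each number, at 27.7 to 34.4 TPM in mutants and 33.1 to 40.4 TPM in controls, with a log2 fold change of -0.26 that did not pass. Plakophilin-2 (Pkp2) had a log2 fold change of 0.30, and the desmosomal cadherin genes Dsg2 and Dsc2 had -0.12 and -0.31. The 5 genes summed to 131 ± 13 TPM in mutants and 126 ± 11 TPM in controls (mean ± SD, n = 3 each). Exons of 15 of the 41 genes share bases with an annotated gene on the opposite strand, among them 127 bases of Esrp1, 424 of Prom1, 499 of Dsp, 101 of Krt8 and 77 of Krt7, and the libraries do not mark strand.

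Same-numbered libraries gave a different balance in each pair. Of the 33 genes, 12 were higher in the mutant of number 1, 18 in that of number 2 and 27 in that of number 3, where 62.1%, 72.7% and 51.7% of all genes tested were. The median differences were -0.19, 0.04 and 0.24 on the log2(TPM + 1) scale, where those of all genes tested were 0.11, 0.23 and 0.02. Numbers 1 and 3 compare embryos of the same somite count. The mutant was higher in 3 of 3 pairs for Cdh1, Cldn12, Tjp1, Pard6b, Krt7, Esrp1, Rab25 and Jup, and lower in 3 of 3 for Dsp. The matching shares of all genes were not computed, so the members are not shown to differ from them. With the number as a block, Cdh1, Esrp1, Jup, Krt7 and Pard6b had an unadjusted p of at most 0.05, all higher in the mutants, but no adjusted p under 0.447 (limma adjusted p from 0.447 to 0.478). The share of all genes at that unadjusted limit with the block was not computed, so these genes are not shown to exceed it. The block also raised the calls over all genes, from 0.0411% to 0.205%. What the numbers mark is not stated in the labels, and pairing by number was not shown.

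**Figure D3:**
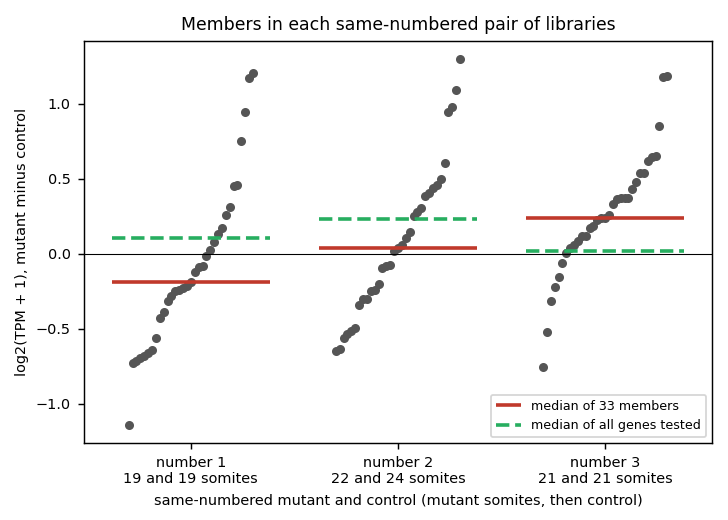
Difference in log2(TPM + 1), mutant minus control of the same number, for the 33 genes (points, in order of size within each pair), with their median (red line) and the median of all genes tested (dashed green). The red line lies below the green for numbers 1 and 2 and above it for number 3.

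The summed TPM of all 41 genes was 1298, 1349.8 and 1594 in mutants 1, 2 and 3, against 1452, 1519.6 and 1195 in controls 1, 2 and 3. Mutant 3 was the highest and control 3 the lowest, and the means were 1414 ± 158 TPM in mutants and 1389 ± 171 TPM in controls (mean ± SD, n = 3 each), a ratio of 1.02. Without Cldn6 the means were 915 ± 75 TPM in mutants and 854 ± 111 TPM in controls, a ratio of 1.07. Accession-named features took 23.5%, 34.6% and 36.1% of the TPM in mutants 1, 2 and 3, against 34.6%, 43.9% and 36.6% in controls 1, 2 and 3. The order of the libraries and the ratios of the means rest on whether these features are counted. With the sum of all 41 genes rescaled without them, control 2 came out highest and mutant 1 lowest. The mutant mean then fell below the control mean. A list of 20 definitive endoderm markers, mostly transcription factors, summed to 218, 210.8 and 307 TPM in mutants 1, 2 and 3, against 351, 356 and 240.2 TPM in controls 1, 2 and 3. There too mutant 3 was the highest mutant and control 3 the lowest control, but the other mutants lay below all controls. The median log2 fold change of its 16 tested genes was -0.28. Among them Nkx2-1, a factor of lung and thyroid endoderm, was at 1.27, 2.25 and 2.87 TPM in mutants 1, 2 and 3, against 8.41, 19.7 and 11.4 TPM in controls 1, 2 and 3 (limma adjusted p = 0.230, and called with the block). The level of the pan-endoderm factor Foxa2 overlapped between genotypes, at 8.68, 3.12 and 6.55 TPM in mutants 1, 2 and 3, against 8.76, 4.22 and 4.81 TPM in controls 1, 2 and 3. Sox2, also on that list, went the opposite way to Nkx2-1. Its lowest mutant level (4.69 TPM, mutant 3) exceeded its highest control level (4.44 TPM, control 3). The log2 fold change of Sox2 was 0.51 and did not pass (limma adjusted p = 0.999). Whether the 41 genes differ between genotypes relative to these markers was not tested.

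**Figure D4:**
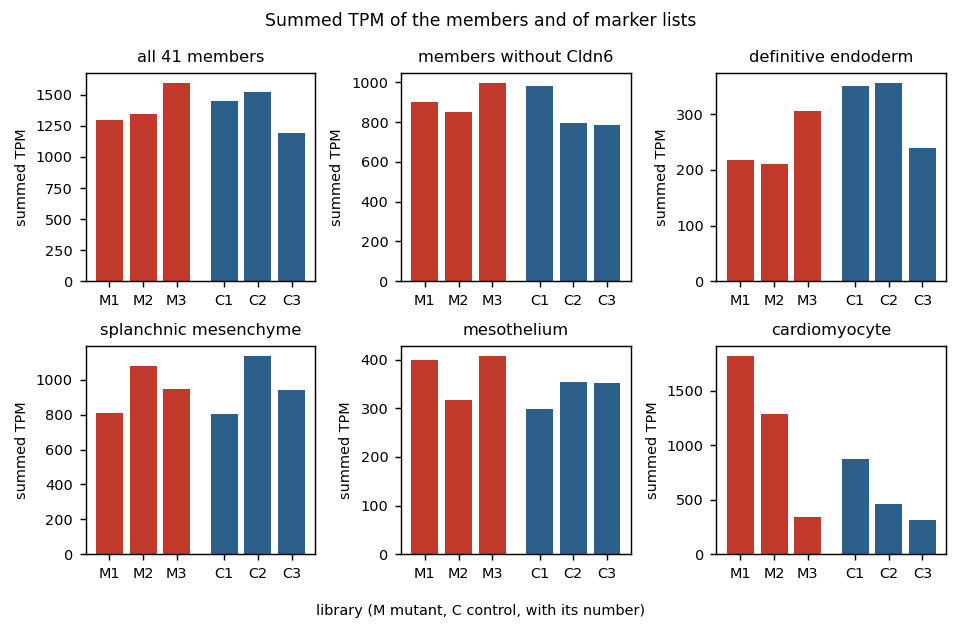
Summed TPM per library (red, mutants; blue, controls) of all 41 genes, of the 41 without Cldn6, and of marker lists for definitive endoderm, splanchnic mesenchyme, mesothelium and cardiomyocytes. The junction and keratin sums vary by less between libraries than the cardiomyocyte sum, which runs from 337 to 1816 TPM in mutants and from 313 to 869 TPM in controls.

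Marker lists of other tissues, written with earlier results of these data known, were read beside the members. The paper names Wt1, Tbx18 and Lhx2 of the mesothelial list as raised in these mutants. It names Osr1, Foxf1 and Foxf2 of the splanchnic list as lowered, so the counts of these lists are not independent of its results. Over all genes tested, 3.07% were higher and 1.01% lower at an unadjusted p of at most 0.05. Splanchnic mesenchyme markers summed to 811 to 1079.6 TPM in mutants and 804 to 1136 TPM in controls, with 5 of 15 genes higher and 5 lower at an unadjusted p of at most 0.05. Mesothelial markers had 7 of 9 tested genes higher and 1 lower at that limit, and Upk3b was called, at 17.8, 20.1 and 15.6 TPM in mutants 1, 2 and 3, against 3.28, 1.73 and 2.07 TPM in controls 1, 2 and 3 (limma adjusted p = 0.0528). Mesothelium is itself an epithelium with keratins, and its part in the levels of Krt7, Krt8 and Krt18 was not tested. Surface ectoderm markers summed to 48.7 to 65.3 TPM in mutants and 28.2 to 51.3 TPM in controls, with Trp63 at 3.53 to 9.17 TPM in mutants and 3.48 to 5.29 TPM in controls, and 0 of 6 tested genes reached an unadjusted p of 0.05. Neural tube markers were at 2.56 to 50.2 TPM in mutants, highest in mutant 2, and 2.71 to 9.55 TPM in controls. Endothelial markers summed to 159 to 243 TPM in mutants and 105 to 130 TPM in controls. Of 9 tested, 3 were higher and 0 lower at an unadjusted p of at most 0.05, and their part in the levels of the members was not tested. Liver bud and yolk sac markers, which come from cells that are also epithelial, summed to 11.7 to 241 TPM in mutants and 13.3 to 189.9 TPM in controls.

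Other genes of the same structures were taken from textbook lists, written with earlier results of these data known. Of 35 tested junction and polarity genes outside the 41, 1 was higher at an unadjusted p of at most 0.05 (3.07% of all genes), and 3 were higher in the mutants without overlap (6.68% of all genes), the kinase gene Prkcz, the angiomotin gene Amot and the nectin gene Pvrl2. None of 4 further claudins and none of 18 further epithelial regulators reached that limit. Of 4 further desmosome genes, 2 did so, both higher in the mutants and without overlap. The plakophilin gene Pkp3 was at 2.56, 1.63 and 1.97 TPM in mutants 1, 2 and 3, against 1.11, 0.74 and 0.63 TPM in controls 1, 2 and 3, and the periplakin gene Ppl at 5.93, 7.57 and 9.10 TPM in mutants 1, 2 and 3, against 2.99, 4.20 and 5.11 TPM in controls 1, 2 and 3. Of 3 further keratins, Krt19 was at 38.4, 49.6 and 32.3 TPM in mutants 1, 2 and 3, against 21.7, 23.4 and 9.66 TPM in controls 1, 2 and 3, with every mutant above every control. It is in the mesothelial list as well, and its log2 fold change of 1.16 did not pass (limma adjusted p = 0.908). Among 8 repressors of the epithelial state, Zeb1 was at 33.7 to 70.4 TPM in mutants and 30.8 to 50.5 TPM in controls, and Zeb2 at 38.1 to 62.4 TPM in mutants and 23.0 to 55.6 TPM in controls. Snai1 was at 3.69 to 8.76 TPM in mutants and 5.62 to 6.63 TPM in controls, and Snai2 at 42.8 to 95.7 TPM in mutants and 47.3 to 86.3 TPM in controls. The 2 that were higher without overlap were Twist1 (13.5 to 29.3 TPM in mutants, 4.06 to 6.98 TPM in controls) and Prrx1 (32.4 to 47.8 TPM in mutants, 5.64 to 19.1 TPM in controls), both factors of mesenchyme, and neither was called.

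Libraries differed by their number as well as by genotype. Both libraries numbered 1 came from 19-somite embryos and lay apart from the other 4 on the first principal component of all genes tested, which held 45.3% of the variance. They were compared with the other 4, with genotype as a covariate, after the data had been seen. Keratin 8 and keratin 18, the claudins 7 and 3, the apical protein gene Crb3 and Rab25 were higher in the 19-somite libraries, by log2 fold changes of 1.05 to 1.53. No member was called lower. Somite number, the replicate number and anything else shared by the number 1 libraries, the only same-numbered ones whose sample titles begin alike, cannot be told apart.

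Of the 33 genes, 6 were called higher (18.2%), where 7.41% of all genes tested were, and 0 were called lower, where 2.00% were. Without overlap, 12 were higher in both 19-somite libraries than in the other 4 (36.4%, against 23.1% of all genes) and 5 were lower (15.2%, against 20.4%). Krt8 was at 72.9 TPM in mutant 1 and 98.5 TPM in control 1, against 22.1 to 35.1 TPM in the other 4 libraries (log2 fold change 1.53, limma adjusted p = 0.0103). Krt18 was at 109.5 TPM in mutant 1 and 136 TPM in control 1, against 46.7 to 74.7 TPM in the other 4 (1.05, limma adjusted p = 0.0205). Thus both partners of the simple-epithelium keratin filament were highest in the same libraries. Cldn7 (1.50, limma adjusted p = 0.0253), Rab25 (1.10, limma adjusted p = 0.0320), Crb3 (1.37, limma adjusted p = 0.0410) and Cldn3 (1.33, limma adjusted p = 0.0737) had the same direction at low levels. The inhibitor gene Spint2 had 0.95 (limma adjusted p = 0.0359), short of the fold limit. The others that were higher without overlap were Cgn, F11r, Marveld3, Pard6b and St14.

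In the opposite direction, Tjp1 was at 107 TPM in mutant 1 and 85.8 TPM in control 1, against 142 to 173 TPM in the other 4 libraries, where the difference of -0.76 on the log2 scale was short of the fold limit (limma adjusted p = 0.0182). Esrp1, Grhl2, Pkp2 and Prom1 were also lower without overlap. The repressor genes Zeb1 and Zeb2, which are not members, had log2 differences of -0.72 and -0.90 at 19 somites (limma adjusted p = 0.0319 and 0.0194), also short of that limit. Of the 8 repressors listed, 3 went the other way, Snai1 (0.30), Twist1 (0.43) and Twist2 (0.86). The median of the 8 was -0.58. Epcam and Cldn6, in contrast, overlapped between the somite groups, with log2 fold changes of 0.09 and -0.33. The median over the 33 genes was 0.09, against 0.02 over all genes tested. The 12 higher genes had a median longest transcript of 2202.5 bases and 55.2% GC and the 5 lower ones 4089 bases and 48.7%, and over all genes the same classes had 2403 bases and 53.7% GC, and 4868 bases and 45.6%. The part of transcript length and base composition in this pattern was not tested. Cardiomyocyte markers summed to 1816 TPM in mutant 1 and 869 TPM in control 1, against 313 to 1281 TPM in the other 4 libraries, and 6 of 11 were called higher at 19 somites. Their part in the levels of Krt8 and Krt18, which embryonic heart also expresses, was not tested. With mutant 1 or control 1 left out, the 19-somite side was 1 library, assumed to vary like the others, and limma called 0 of the members, where 7 and 13 of all genes were called higher. The log2 fold changes were then 1.70 and 1.36 for Krt8, 1.23 and 0.88 for Krt18 and 0.97 and 2.02 for Cldn7, without mutant 1 and without control 1 in that order. With a pseudocount of 5, limma called Krt8 and Krt18 alone, 2 of the 33 members, beside 542 of 14606 genes called higher.

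**Figure D5:**
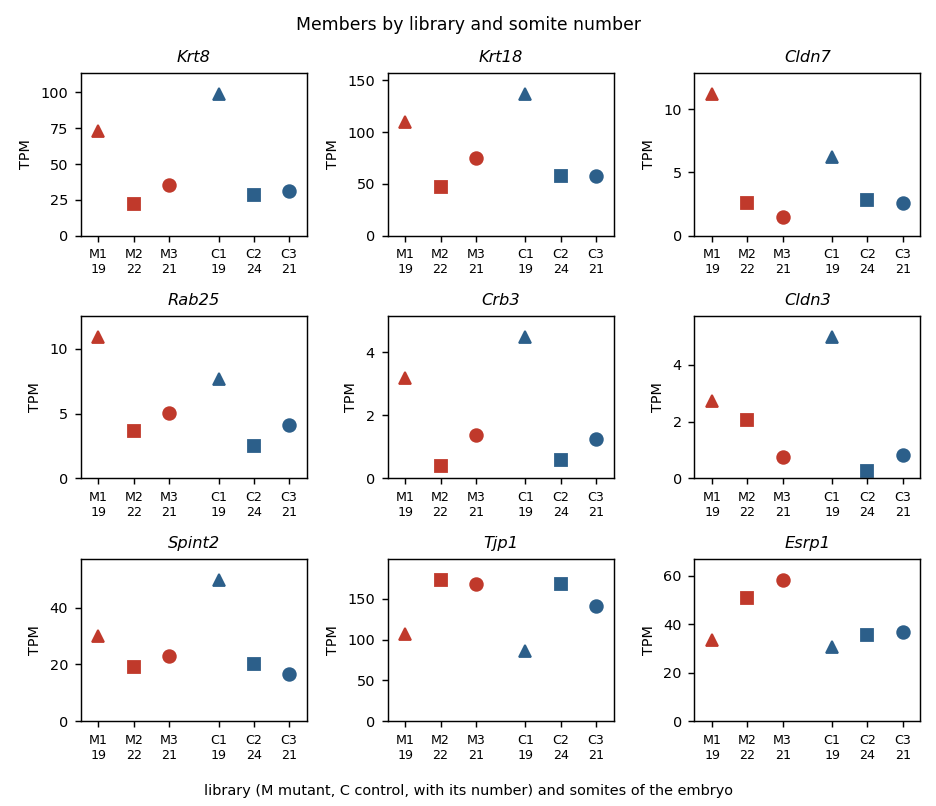
TPM of 9 genes in each library (red, mutants; blue, controls; triangle, square and circle for numbers 1, 2 and 3) with the somites of the embryo under each library. In the panels from Krt8 to Spint2 both 19-somite libraries lie above the other 4, and in those of Tjp1 and Esrp1 below them.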

How the data were processed

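RNA of single micro-dissected foreguts was amplified with SMART-Seq v4 from polyadenylated transcripts and made into libraries with Nextera XT, per the labels. The methods name mm10 and the CSBB pipeline, whose aligner is not given in the sources used here. A single table of TPM values was deposited by the authors, with 22564 features and the same total in each library. Read depth is unknown, and errors come only from the variation among embryos of a genotype. Groups came from the labelled genotype. The methods name RUVSeq, which needs counts, so log2(TPM + 1) values were compared with limma (version 3.58.1, R version 4.3.3, mean-variance trend, two-sided, Benjamini-Hochberg) over 14606 genes that averaged 1 TPM or more, all 6 libraries in the fit. Intervals are 95% intervals of limma. The fit was tested on simulated data.

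The members and lists were chosen with earlier results of these data known. Values in every library were given for members with a mean of at least 50 TPM and for those with an unadjusted p of at most 0.05 in the fit with or without the block, and other lists were described by up to 4 genes and their defining markers. Krt8 and the genes of the 19-somite comparison were named after their values were seen. Libraries with the same number deviated together from their group means (r = 0.67, 0.37 and 0.15 for numbers 1, 2 and 3, each above 0.1). Deviations cancel within a genotype, so a shift shared by the number 1 libraries also raises r for numbers 2 and 3. Values of r between libraries of different number were not computed, so these do not show pairing. The numbers were taken as pairs for the block, although the labels do not state it. The methods call the controls littermates of mutants, but the sample titles begin alike only for the number 1 libraries, so a shared litter is not shown for numbers 2 and 3. The paper's reporting summary also calls the controls littermates, but under replication it speaks of separate litters for the control and mutant embryos. Which embryos shared a litter is therefore unclear. Gene positions are from the GENCODE annotation of GRCm38 and promoters from RefSeq. Alternatives were other pseudocounts, filters, scalings, covariates, the block, weights and leaving out each library. A gene that the naming rule covers is not reported here.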

Additional observations from a re-analysis of the deposited data

Results flagged for a closer look

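Between embryos of the same somite count, the 33 genes tested had a median difference, mutant minus control, of -0.19 at 19 somites and 0.24 at 21 somites on the log2(TPM + 1) scale. The signs were opposite, each from 1 mutant and 1 control, and the difference between these stages was not tested. Of the 33 genes, 12 were higher in the mutant at 19 somites and 27 at 21 somites, where 62.1% and 51.7% of all genes tested were. The median differences of all genes were 0.11 at 19 somites and 0.02 at 21 somites.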

How the results depend on the processing

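Between genotypes, none of the 33 genes was called under any of the alternatives run. Of 198 values of 11 named genes under alternatives, 184 kept their direction and 14 turned it, none with a call. Cldn6 went to 0.01 with somite number as a covariate, 0.00 with numbers 2 and 3 only and 0.05 with array weights, and ran from -0.25 to 0.16 with 1 library left out. Prom1 went to 0.09 with numbers 2 and 3 only and 0.04 with array weights, and ran from -0.13 to 0.11. Krt18 went to 0.03 with numbers 2 and 3 only and ran from -0.37 to 0.33, Krt8 from -0.65 to 0.37 and Tjp1 from -0.08 to 0.42. The median of the 33 ran from -0.04 to 0.28 with 1 library left out, the highest without control 1, and was -0.09 with quantile normalization and -0.06 with either other scaling. Members higher at an unadjusted p of at most 0.05, 0 as reported, numbered 5 with the replicate block, 1 with somite number, 2 with numbers 2 and 3 only, 2 with array weights and 0 to 1 with 1 library left out. The shares of all genes at that limit under these alternatives were not computed. Genes called, 6 as reported, numbered 30 with the replicate block, 27 with somite number, 26 with array weights, 16 when rescaled without accession-named features, 11 with quantile normalization, 3 at an adjusted p of at most 0.05, 2 without a filter, 1 at a mean of at least 5 TPM and 0 with numbers 2 and 3 only. They ran from 0 (without control 2 or control 3) to 7 with 1 library left out.

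Members called higher at 19 somites, 6 of 33 as reported, stood beside 1083 of 14606 genes tested. With a pseudocount of 5 they were 2 of 33, beside 542 of 14606. Without a filter they were 3 of 41, beside 648 of 22564. At a mean of at least 5 TPM they were 3 of 27, beside 825 of 10353. Without mutant 2, mutant 3, control 2 or control 3 they numbered 5, 7, 4 and 7, beside 972, 1089, 911 and 1325 of all genes. Of 95 values of 7 named genes in that comparison, 68 stayed as called or uncalled, 27 were no longer called and 0 reversed. Without mutant 1 or control 1 the 19-somite side was 1 library, and calls were lost while folds could be as large (Krt8 1.70 and 1.36, Cldn3 1.98 and 0.68, Crb3 1.53 and 1.21, in that order). The causes were not tested. That comparison, its alternatives and the sum without Cldn6 were chosen after seeing the data. Without read depth, no limit from counting error can be given.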
